A study of Mus musculus with 27 samples.

Results

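The 48 genes described here encode the degradative machinery of the lysosome, and they were measured in microglia, the resident immune cells of the brain, after a bleed. They were chosen by name. Rows of the deposited count table were kept where their Ensembl identifiers map, in the mouse GENCODE annotation, to a given list of symbols, and the cathepsins were left out. All 48 were found among the 56691 genes of the table. They fall into 24 genes for hydrolases, with the hydrolase activator Psap counted there, 6 for lysosomal membrane proteins, 3 for transcription factors and 15 for subunits or accessory proteins of the V-ATPase. A filter on low counts passed 47 of the 48 and 17573 genes in all. Only Atp6v0d2, a subunit known from osteoclasts, was set aside.

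The study concerns the influence of gut microbes on microglia following intracerebral hemorrhage (ICH). Microglia were sorted from brain tissue around the hematoma, and RNA was sequenced in 9 groups of 3 libraries, 27 in all. The groups with hemorrhage were wild-type (WT) mice given an antibiotic cocktail (ABX), germ-free (GF) mice and specific pathogen-free (SPF) mice, each at day 7 and at day 3 after collagenase, an enzyme that breaks down vessel walls. The sham group of each condition was given phosphate-buffered saline (PBS). Its label is day 7, which means that day 3 was compared with a sham of another day. The labels used here give no strain or age, and none says that libraries came from separate animals. P-values therefore measure only the spread between these libraries, which may be technical.

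Lysosomes break down what a cell takes up and what it recycles. Soluble hydrolases reach them mostly through mannose 6-phosphate tags and work at acid pH, and each cleaves a particular bond in a glycan, lipid or protein. The pH is set by the V-ATPase, a proton pump whose cytosolic V1 sector hydrolyses ATP and drives rotation of the membrane sector V0. The membrane is lined with heavily glycosylated proteins such as Lamp1 and Lamp2. Many of these genes share the transcription factors Tfeb, Tfe3 and Mitf, which bind the sequence CACGTG and its longer form TCACGTGA in promoters. In microglia the lysosome is best known for digesting phagocytosed cell debris, and Cd68, a glycoprotein of lysosomes and endosomes, is widely used as a marker of phagocytic microglia.

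The promoters show where this motif lies among the members. RefSeq promoters (GRCm38.p6, 250 bases before to 50 bases after the start of the gene) were at hand for 42 of the 48. CACGTG, a palindrome that reads the same on both strands, was found in 12 of the 42, which is 28.6%, against 7.24% of all 27025 promoters of the same length. TCACGTGA, which contains it, was found in 5 of the 42, which is 11.9%, against 1.01% of all. By class, CACGTG lay in 6 of 23 promoters of hydrolases, 2 of 6 of membrane proteins, 0 of 3 of the transcription factors and 4 of 10 of the V-ATPase. Promoters of 3 members are printed with CACGTG in capitals, because levels of these genes behaved differently on day 7 in the mean over conditions. There Glb1 fell, Atp6v0e rose and Lamp1 was not called. In SPF mice, by contrast, each Glb1 library of day 7 lay above each sham library, without a call.
Glb1, chr9:114400828-114401127, plus strand: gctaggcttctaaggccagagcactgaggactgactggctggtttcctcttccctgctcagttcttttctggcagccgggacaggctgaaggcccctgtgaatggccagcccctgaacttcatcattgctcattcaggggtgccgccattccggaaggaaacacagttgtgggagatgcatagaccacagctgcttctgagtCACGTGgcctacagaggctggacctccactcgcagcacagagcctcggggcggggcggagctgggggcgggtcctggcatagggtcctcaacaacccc
Atp6v0e, chr17:26676146-26676445, plus strand: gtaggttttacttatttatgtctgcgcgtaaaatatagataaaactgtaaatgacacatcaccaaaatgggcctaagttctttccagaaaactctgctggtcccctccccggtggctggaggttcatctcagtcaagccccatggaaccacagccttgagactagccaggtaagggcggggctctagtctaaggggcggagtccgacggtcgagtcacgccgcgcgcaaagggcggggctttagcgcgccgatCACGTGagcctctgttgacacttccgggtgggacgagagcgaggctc
Lamp1, chr8:13158911-13159210, plus strand: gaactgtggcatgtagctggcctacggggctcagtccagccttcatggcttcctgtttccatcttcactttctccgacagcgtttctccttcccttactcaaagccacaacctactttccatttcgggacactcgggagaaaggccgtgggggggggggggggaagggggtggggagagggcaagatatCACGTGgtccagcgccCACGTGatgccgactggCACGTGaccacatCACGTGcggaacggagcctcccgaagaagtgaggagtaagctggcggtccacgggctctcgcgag
Glb1 and Atp6v0e each hold the motif 1 time and Lamp1 holds it 4 times, and in Atp6v0e it is part of TCACGTGA. The promoter of Lamp2, which had the smallest adjusted p over conditions at day 7, holds none. A match describes these letters only and shows no binding.

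Levels are given as CPM, which are counts scaled to the size of each library, and the 3 values of a group are its replicates 1, 2 and 3. The libraries held 41664864 to 79090595 counts and 9185 to 18408 detected genes. In 7 of them under 12000 genes were detected: every GF ICH day 7 library, GF sham replicates 1 and 2, and ABX ICH day 7 replicates 1 and 2. The summed level of 10 microglial markers was 23100 to 117000 CPM, and none was at 0 throughout a group. At day 7 it was 57440 to 117000 CPM in ABX, 45520 to 74740 in GF and 33900 to 49110 in SPF mice. At day 3 it was 23100 to 34710 CPM in ABX, 28840 to 52120 in GF and 29460 to 34880 in SPF mice. In sham it was 54880 to 64480 CPM in ABX, 46440 to 108500 in GF and 52150 to 59690 in SPF mice. The summed level of 8 neutrophil markers was 919 to 3803 CPM in GF ICH day 7 and 42.8 to 895 CPM in the other groups. In GF ICH day 7, Ly6g, Mmp8 and Camp were at 0 in replicates 1 and 3, and Cxcr2 was at 0 in replicate 2. That of 8 monocyte markers was 585 to 1716 CPM in GF ICH day 7, against up to 906 CPM in ABX ICH day 7, up to 615 CPM in GF sham and up to 227 CPM elsewhere. The part of these cells and of the low number of detected genes in the day 7 results of GF and ABX mice was not tested. In sorted cells, fewer cells of a type and less RNA per cell cannot be told apart.

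Averaged over the 27 libraries and divided by exon length, the protease legumain, Lgmn, had the highest level, at 3885 CPM per kb. Cd68 followed at 1430, the V0 subunit Atp6v0b at 1075, the saposin precursor Psap at 914 and Hexa, the alpha chain of beta-hexosaminidase, at 728 CPM per kb. The lowest levels among the members tested were 2.36 CPM per kb for Galc, a galactosylceramidase, and 2.57 CPM per kb for the sulfatase Ids. In all, 28 members averaged 100 CPM or more: 13 of the V-ATPase, 11 hydrolases and 4 membrane proteins, but none of the transcription factors. Since the strand setting of the counts is not given in the sources used here, reads of overlapping antisense genes cannot be told apart. Such overlap covers 32.3% of the exons of Arsb, 21.6% of Sgsh, 18.8% of Arsa, 12.8% of Hexa and 11.8% of Atp6v0b, and Atp6v0c has annotated pseudogenes.

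**Figure D1:**
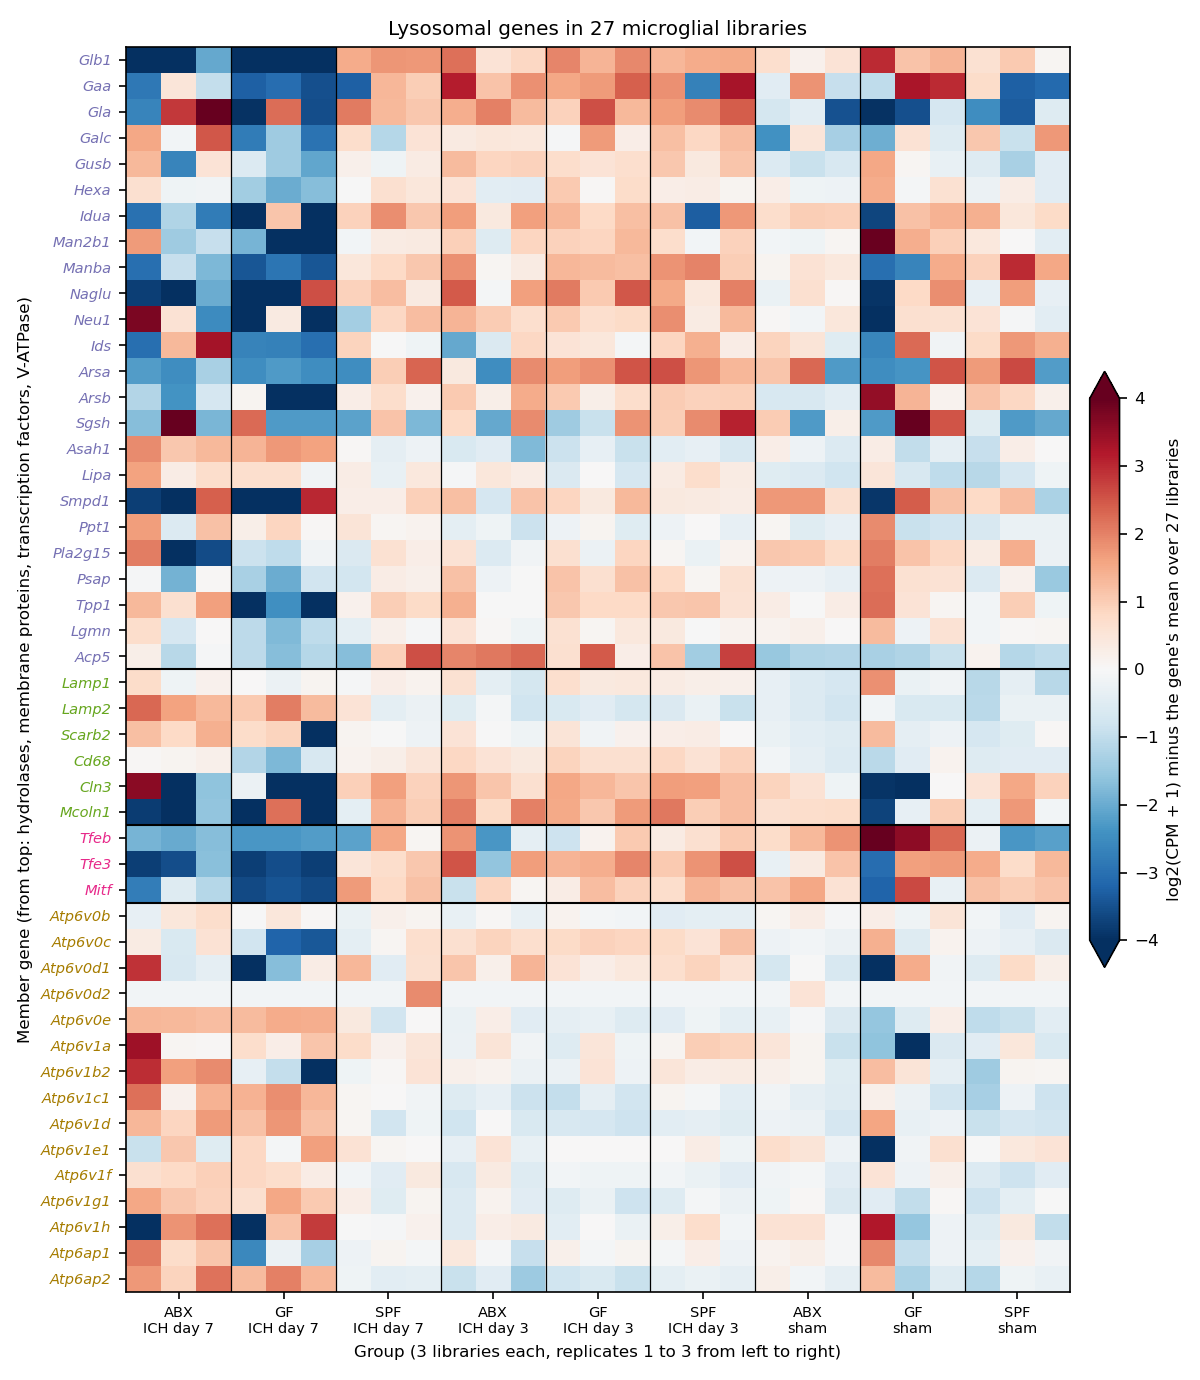
Level of each of the 48 members (rows, by class) in each of the 27 libraries (columns, by group), as log2(CPM + 1) minus the gene's mean over all libraries (colour). The 3 GF ICH day 7 libraries are low for many hydrolases and for the transcription factors, and the GF and ABX day 7 libraries are high for Lamp2, Asah1 and Atp6v1c1.

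How did these genes stand at day 3? Cd68 was the single member that rose. Its level was 2841, 2315 and 2097 CPM in ABX ICH day 3 libraries, against 1491, 1234 and 1079 CPM in ABX sham. In GF mice it was 2960, 2457 and 2502 CPM at day 3 and 745, 1166 and 1753 CPM in sham, and in SPF mice 2821, 2400 and 2999 CPM at day 3 and 1108, 1170 and 1161 CPM in sham. In each condition all 3 libraries of day 3 lay above all 3 of sham. Averaged over the 3 conditions, the log2 fold change was 1.10 ± 0.17 (edgeR adjusted p = 0.00036), where adjustment is by the Benjamini-Hochberg method over all 17573 genes and the error is an SE here and below. A gene is called where this adjusted p is under 0.05. In single conditions the changes were 0.93 ± 0.29 in ABX, 1.11 ± 0.29 in GF and 1.26 ± 0.29 in SPF mice, and none passed, with edgeR adjusted p of 0.57, 0.482 and 0.134.

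The other 46 members tested were not called at day 3. Averaged over conditions, 1 of 47 members was called, against 1.3% of all genes and 6.37% of the 1649 genes averaging 100 CPM or more. Of the 47, 7 had an unadjusted p under 0.05, beside 12.3% of all genes. DESeq2 called 3 members and limma voom 7. Here and below, shares of all genes are given for the main edgeR fit alone. Counts from other methods or settings thus have no background beside them. Besides Cd68, voom called Gla, Gusb, Lipa, Psap, Lamp1 and Atp6v0c, all higher at day 3. In ABX mice 0 of 47 were called by edgeR (0.125% of all genes), 1 by DESeq2 and 3 by voom. An unadjusted p under 0.05 was found for 3 members, beside 8.27% of all genes. In GF mice 0 of 47 were called by edgeR (0.00569% of all genes), 2 by DESeq2 and 0 by voom. The unadjusted count was 3, beside 5.29% of all genes. In SPF mice 0 of 47 were called by edgeR (0.102% of all genes), 1 by DESeq2 and 4 by voom. The unadjusted count was 5, beside 7.26% of all genes. Hydrolases had a median log2 fold change of 0.36 over the conditions, with 17 of 24 positive, and the V-ATPase one of −0.02, beside −0.06 for all genes.

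Acp5, a tartrate-resistant acid phosphatase, showed the largest fold change at day 3 among members, from low levels. It was at 11.4, 13 and 15 CPM in ABX ICH day 3, 3.99, 16.8 and 2.9 in GF ICH day 3 and 6.15, 0.244 and 20.4 in SPF ICH day 3. In sham it was at 0.139, 0.408 and 0.419 CPM in ABX, 0.322, 0.392 and 0.737 in GF and 2.56, 0.475 and 0.581 in SPF mice. The groups do not overlap in ABX and GF mice and do in SPF mice. The mean log2 fold change of 4.08 ± 1.19 (edgeR adjusted p = 0.0943) was not called. Lamp1 was at 1558, 1466 and 1428 CPM in SPF ICH day 3, against 572, 963 and 575 CPM in SPF sham, which do not overlap. That change, 1.08 ± 0.42 (edgeR adjusted p = 0.659), was not called either, and the mean over conditions was 0.41 ± 0.24.

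By day 7, SPF mice showed no called member. Of 47, 0 were called by edgeR (0.0797% of all genes), 0 by DESeq2 and 2 by voom. At an unadjusted p under 0.05 there were 2, beside 5.01% of all genes. The signs were mostly positive: 36 of 47 fold changes lay above 0, with a median of 0.41 beside −0.03 for all genes and 0.07 for genes of 100 CPM or more. For the V-ATPase 13 of 14 were positive, between −0.09 and 0.70, and the median was 0.44. For hydrolases the median was 0.38. Cd68 was at 1760, 1854 and 2241 CPM in SPF ICH day 7, above each SPF sham library (1108 to 1170 CPM), with a change of 0.77 ± 0.29 (edgeR adjusted p = 0.897). Lamp1 was at 1208, 1491 and 1380 CPM in SPF ICH day 7, likewise above each sham library, with 0.95 ± 0.42 (edgeR adjusted p = 0.897).

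In ABX mice at day 7, 3 members rose and 1 fell, which is 4 of 47 against 0.945% of all genes called and 7.64% of those of 100 CPM or more. Of all genes called, 129 were higher and 37 lower. All 4 average over 100 CPM. Lamp2, a membrane protein that also serves in chaperone-mediated autophagy, was at 5427, 3369 and 2743 CPM in ABX ICH day 7, against 887, 764 and 653 CPM in ABX sham. All 3 day 7 libraries lay well above sham, and the log2 fold change was 2.32 ± 0.35 (edgeR adjusted p = 0.000872). This call held when each of the 27 libraries in turn was left out, and with GC offsets (1.69). Without the libraries under 12000 genes, which leaves replicate 3 as the only ABX ICH day 7 library, the change was 1.76. GC offsets remove, from each library, the trend of level with the GC content of exons among abundant genes.

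Asah1, an acid ceramidase, was at 3896, 2206 and 2545 CPM in ABX ICH day 7, against 1245, 915 and 722 CPM in ABX sham, and the groups do not overlap. It rose by 1.58 ± 0.38 (edgeR adjusted p = 0.0431). Atp6v1c1, a V1 subunit that links the sectors of the pump, was at 2122, 521 and 1218 CPM in ABX ICH day 7, against 419, 363 and 326 CPM in ABX sham. It rose by 1.80 ± 0.42 (edgeR adjusted p = 0.0394). Glb1, the lysosomal beta-galactosidase, was at 1.56, 1.17 and 11.9 CPM in ABX ICH day 7, against 83.1, 59.6 and 76.7 CPM in ABX sham. All 3 day 7 libraries were far below sham, and the log2 fold change was −3.90 ± 0.90 (edgeR adjusted p = 0.035). These 3 calls were lost when some single libraries were left out, in 14 of 27 cases for Asah1, 15 for Atp6v1c1 and 13 for Glb1, with edgeR adjusted p of up to 0.227, 0.222 and 0.131. With GC offsets Asah1 (1.31) and Atp6v1c1 (1.62) kept their direction and lost the call.

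The count in ABX mice depended on the method. At an unadjusted p under 0.05 there were 19 members, beside 21.5% of all genes. DESeq2 called 17 members and voom 10. The share of all genes called is not given for these methods or for the settings below. Their counts therefore do not show whether members were called more often than other genes. With DESeq2 size factors in place of TMM, edgeR called 1 up and 1 down, and the median of all genes moved from −0.79 to −1.19. Without the low libraries, which leaves replicate 3 as the only ABX ICH day 7 library and assumes that it varies like the other groups, 16 members were called, 12 up and 4 down. Among the 16 were the V-ATPase subunits Atp6v0e, Atp6v1b2, Atp6v1c1, Atp6v1d and Atp6v1h and the accessory protein Atp6ap2, all up. The V-ATPase as a whole had 13 of 14 changes above 0 and a median of 1.50, beside 1.05 for all genes of 100 CPM or more. Lipa, the lysosomal acid lipase that frees cholesterol from its esters, was at 994, 404 and 534 CPM in ABX ICH day 7, above each sham library (188 to 233 CPM), with a change of 1.58 ± 0.46 (edgeR adjusted p = 0.0953) that was not called.

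**Figure D2:**
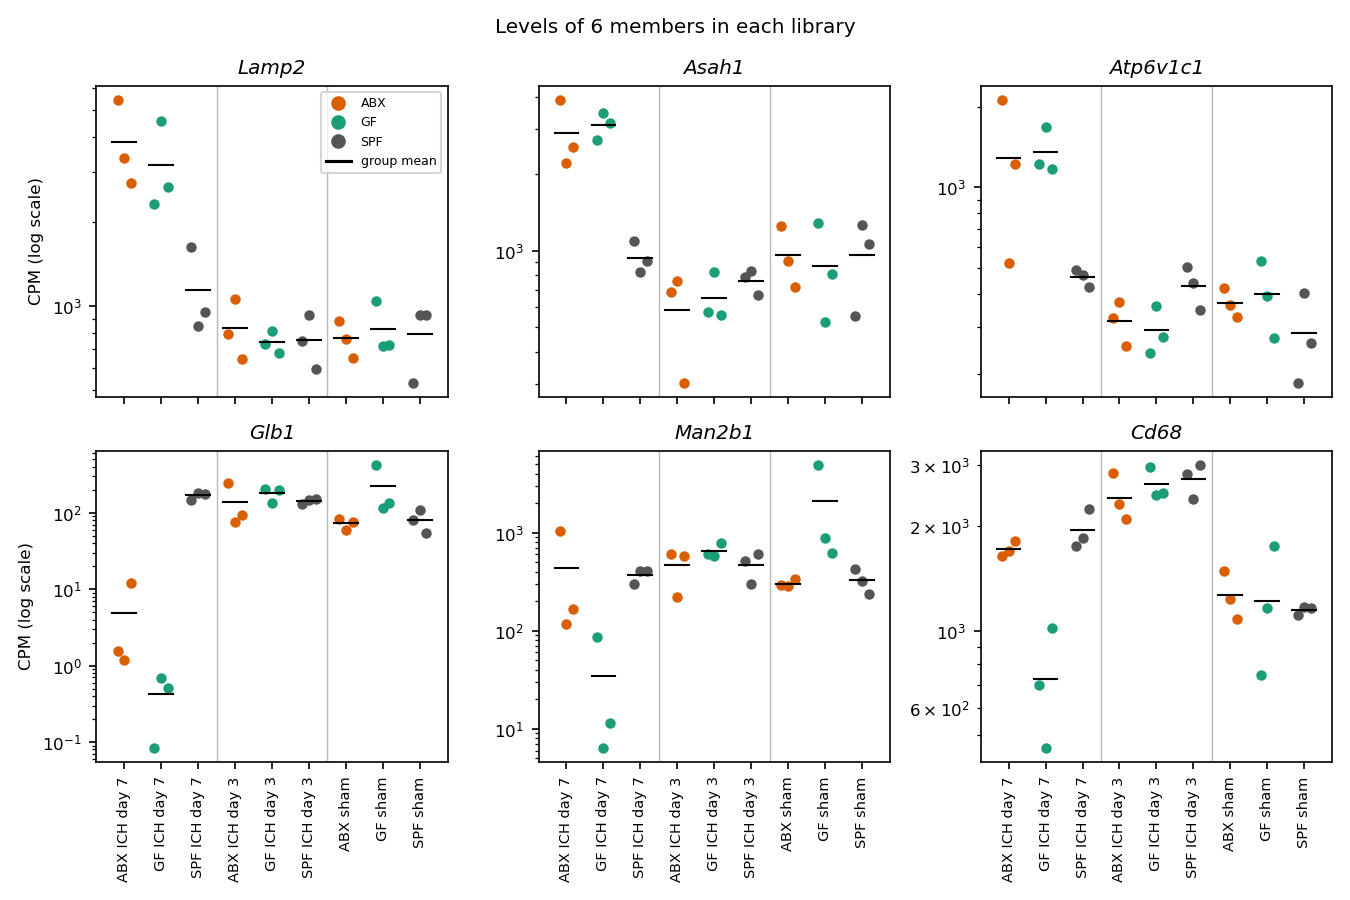
Levels of Lamp2, Asah1, Atp6v1c1, Glb1, Man2b1 and Cd68 in CPM on a log axis, with 1 point per library, groups along the axis and a bar at the group mean. Lamp2 is at 2743 to 5427 CPM in ABX ICH day 7 and 2319 to 4590 CPM in GF ICH day 7, against at most 1039 CPM in any sham library, while Glb1 is at 11.95 CPM or less in the same 6 day 7 libraries.

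GF mice at day 7 showed most of the change. Of 47 members 21 were called, 5 up and 16 down, against 14.4% of all genes. Calls over all genes also went mostly down, with 298 higher and 2238 lower. Of the 28 members of 100 CPM or more 14 were called, against 24.3% of all genes at that level. At an unadjusted p under 0.05 there were 26 members, beside 32.7% of all genes. DESeq2 called 24 members and voom 15. With DESeq2 size factors the split was 2 up and 17 down, and the median of all genes moved from −2.10 to −2.63. The 16 members that fell were 11 hydrolases, all 3 transcription factors, Atp6v0c and Atp6ap1. The 5 that rose were Lamp2, Asah1, Atp6v0e, Atp6v1c1 and Atp6v1g1. Leaving out each of the 27 libraries in turn kept 15 of the 21 calls in every case.

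Among glycosidases, 6 of 11 fell and none rose. Glb1 was at 0.0842, 0.696 and 0.505 CPM in GF ICH day 7, against 421, 116 and 136 CPM in GF sham, and all 3 day 7 libraries were under 1 CPM. It fell by 9.03 ± 1.13 on the log2 scale (edgeR adjusted p = 3.62e-05). Hexa was at 487, 322 and 399 CPM in GF ICH day 7, against 3573, 1219 and 1958 CPM in GF sham, with no overlap and a change of −2.48 ± 0.39 (edgeR adjusted p = 0.000343). Man2b1, a lysosomal alpha-mannosidase, was at 86.8, 6.41 and 11.4 CPM in GF ICH day 7, against 4874, 878 and 618 CPM in GF sham, with no overlap and a change of −5.93 ± 1.01 (edgeR adjusted p = 0.000648). Both Glb1 and Man2b1 kept the call with GC offsets (−8.16 and −4.27), while Hexa lost it (−0.39). Gaa, the acid alpha-glucosidase, fell with a log2 fold change of −8.51, Manba, a beta-mannosidase, with −5.53 and Gusb, the beta-glucuronidase, with −1.87 (edgeR adjusted p = 0.0205, 0.0186 and 0.0393), and only the groups of Manba overlap. Leaving out single libraries ended these 3 calls: GF ICH day 7 replicate 1 or 3 for Gaa (edgeR adjusted p up to 0.0647), either of these or GF sham replicate 3 for Manba (up to 0.457, and a change as small as −1.47), and GF ICH day 7 replicate 2 or 3 or GF sham replicate 1 for Gusb (up to 0.196).

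Of 4 sulfatases, 2 fell. Ids, the iduronate sulfatase, changed by −6.51 ± 2.10 (edgeR adjusted p = 0.0397) and Arsb, an N-acetylgalactosamine sulfatase, by −3.79 ± 1.25 (edgeR adjusted p = 0.0427). Both calls were sensitive to single libraries: leaving out any of 6 of the 27 libraries ended that of Ids and any of 17 that of Arsb, whose change was −2.33 without GF sham replicate 1 (edgeR adjusted p = 0.179). Both peptidases fell. Tpp1, a tripeptidyl peptidase, was at 0.779, 43.7 and 0.988 CPM in GF ICH day 7, against 1170, 359 and 258 CPM in GF sham. Replicate 2 stood well above the other two day 7 libraries, and all 3 were below sham, with a change of −5.30 ± 1.07 (edgeR adjusted p = 0.00244). Lgmn was at 3442, 2099 and 3547 CPM in GF ICH day 7, against 17330, 6204 and 10800 CPM in GF sham, with no overlap and a change of −1.92 ± 0.33 (edgeR adjusted p = 0.000632). With GC offsets Tpp1 kept the call (−5.26) and Lgmn lost it (−0.82).

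Among the 6 genes for lipid hydrolases and their activator, 1 rose and 1 fell. Asah1 was at 2706, 3484 and 3159 CPM in GF ICH day 7, against 1283, 526 and 811 CPM in GF sham, with no overlap and a rise of 1.84 ± 0.38 (edgeR adjusted p = 0.00291). Psap, whose product is cut into the saposins that help hydrolases reach sphingolipids, was at 809, 502 and 1169 CPM in GF ICH day 7, against 9091, 2978 and 2917 CPM in GF sham. All 3 day 7 libraries were lower, and the change was −2.60 ± 0.53 (edgeR adjusted p = 0.00277). With GC offsets both lost the call, at 0.28 for Asah1 and −0.62 for Psap. Lipa was at 519, 519 and 297 CPM in GF ICH day 7, against 459, 210.1 and 161 CPM in GF sham. Its groups overlap, and the change of 0.68 ± 0.45 (edgeR adjusted p = 0.262) was not called.

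Lamp2 was the single membrane protein of 6 to be called in GF mice. It was at 2319, 4590 and 2658 CPM in GF ICH day 7, against 1039, 722 and 726 CPM in GF sham, all 3 day 7 libraries being higher, and it rose by 1.94 ± 0.35 (edgeR adjusted p = 0.000955). Its exons have a GC content of 38.7%, and with GC offsets the change was 0.06 and not called. The related Lamp1 was at 1263, 1054 and 1334 CPM in GF ICH day 7, against 4374, 1027 and 1126 CPM in GF sham, an overlap, with −0.84 ± 0.42 (edgeR adjusted p = 0.166). Cd68 was at 699, 461 and 1018 CPM in GF ICH day 7, also overlapping GF sham, with −0.75 ± 0.29 (edgeR adjusted p = 0.0789).

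The V-ATPase split in GF mice, with 3 of 14 up and 2 down. Atp6v0e, a small V0 subunit, was at 1066, 1230 and 1213 CPM in GF ICH day 7, against 151, 308 and 529 CPM in GF sham, with no overlap and a rise of 1.83 ± 0.40 (edgeR adjusted p = 0.00411). Atp6v1c1 was at 1221, 1680 and 1171 CPM in GF ICH day 7, against 531, 392 and 272 CPM in GF sham, again with no overlap, and rose by 1.77 ± 0.42 (edgeR adjusted p = 0.00724). Atp6v1g1, part of the stalk of V1, rose by 1.55 ± 0.37 (edgeR adjusted p = 0.00667). In the opposite direction, Atp6v0c, the proteolipid that forms most of the rotating V0 ring, was at 402, 73.6 and 64.5 CPM in GF ICH day 7, against 1846, 481 and 757 CPM in GF sham. All 3 day 7 libraries were below sham, and the change was −2.52 ± 0.56 (edgeR adjusted p = 0.0047). The accessory protein Atp6ap1 changed by −1.87 ± 0.57 (edgeR adjusted p = 0.0304), with groups that overlap, and lost the call without GF ICH day 7 replicate 1 or 3 or GF sham replicate 1, where it was as small as −0.55. With GC offsets Atp6v1g1 alone of these 5 kept its call (1.52).

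Atp6v1a, the catalytic A subunit of V1, was at 156, 113 and 208 CPM in GF ICH day 7, above each GF sham library (30.5, 0.697 and 62.7 CPM), with a change of 2.34 ± 0.97 (edgeR adjusted p = 0.102) that was not called. Atp6v0d1, a subunit between V0 and V1, was called in none of the comparisons. It was at 150, 12 and 14.7 CPM in ABX ICH day 7, 0, 5.24 and 24.1 in GF ICH day 7 and 49.7, 13.8 and 30.8 in SPF ICH day 7. The corresponding sham values were 11.5, 18.9 and 12.1 CPM in ABX, 0.161, 55.4 and 17.4 in GF and 13.3, 33.3 and 23 in SPF mice, and in each condition the groups overlap.

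**Figure D3:**
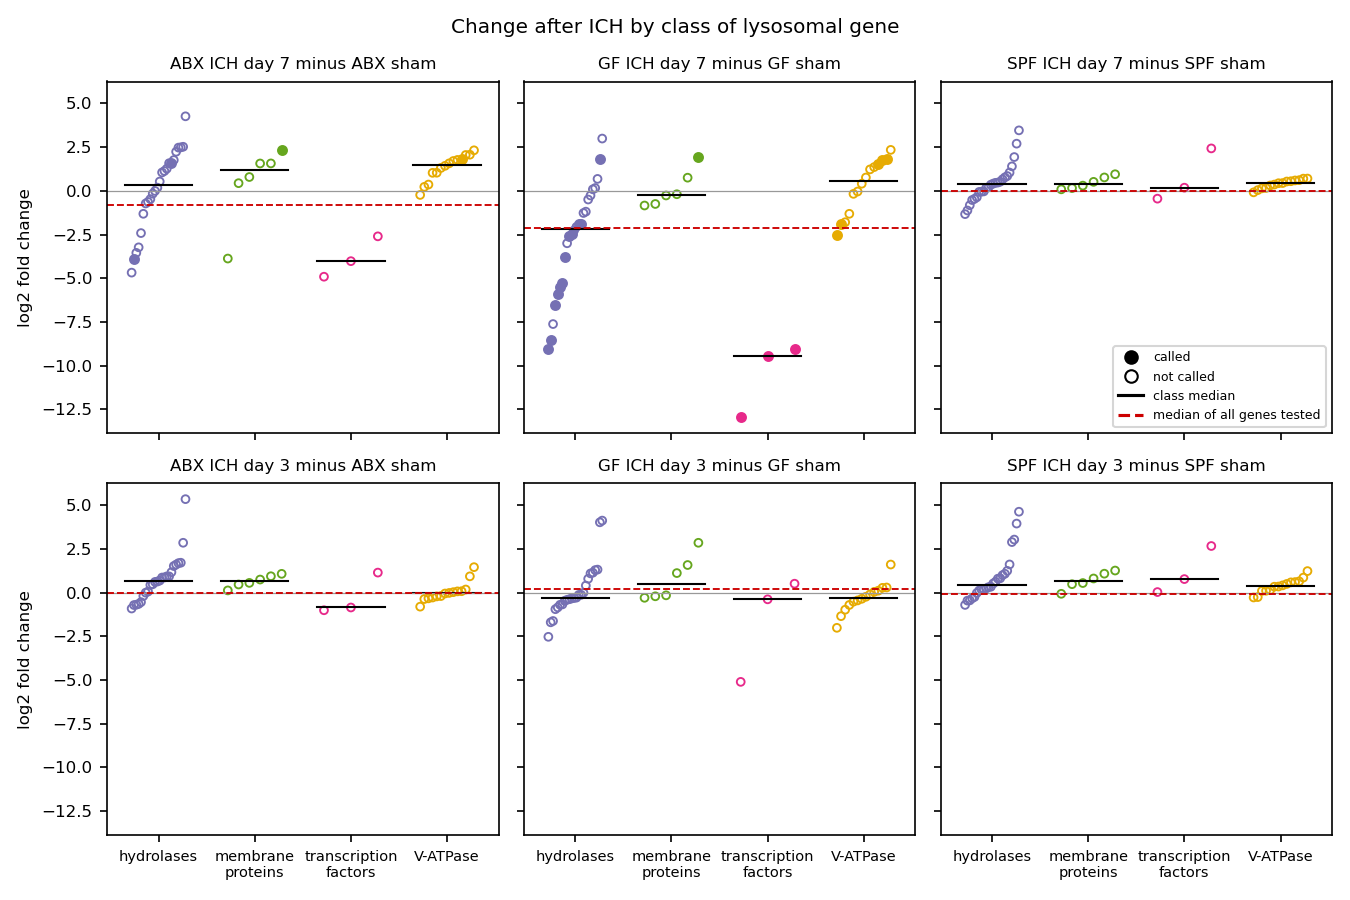
Log2 fold change of each member tested (points, filled where called) by class, after ICH against sham, with day 7 above and day 3 below and the conditions ABX, GF and SPF from left to right; bars are class medians and the dashed line is the median of all genes tested. In GF mice at day 7 hydrolases have a median of −2.16 and the V-ATPase one of 0.59. The median there is −2.10 for all genes tested and 0.26 for genes of 100 CPM or more. In SPF mice both classes lie between 0.38 and 0.44.

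Taking the 3 conditions together at day 7, 11 of 47 members rose and 8 fell against sham, which is 40.4% of the members beside 20.2% of all genes. Of all genes called, 654 were higher and 2904 lower. Among genes of 100 CPM or more, 30.3% were called, beside 14 of the 28 members at that level. DESeq2 called 21 members and voom 20. With DESeq2 size factors the split was 6 up and 13 down, and the median of all genes moved from −1.24 to −1.50. The risers included Lamp2 at 1.59 ± 0.20 (edgeR adjusted p = 1.97e-05) and Asah1 at 1.13 ± 0.22 (edgeR adjusted p = 0.00143). Among subunits of the V-ATPase, 7 of 14 rose and none fell: Atp6v0e by 1.37 ± 0.23, Atp6v1c1 by 1.42 ± 0.24, Atp6v1g1 by 1.11 ± 0.21, Atp6v1a by 1.68 ± 0.55, Atp6ap2 by 1.09 ± 0.28, Atp6v1d by 1.00 ± 0.27 and Atp6v1f by 0.68 ± 0.23 on the log2 scale. By sector, 5 of 8 genes of V1, 1 of 4 of V0 and 1 of 2 accessory proteins rose. DESeq2 size factors ended the calls of Atp6v1a, Atp6v1d, Atp6v1f and Atp6ap2, and GC offsets those of Atp6v1a, Atp6v1d and Atp6ap2. That of Atp6v1a was also lost on leaving out any of 9 single libraries, and that of Atp6v1f any of 17.

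The remaining members called over the 3 conditions were hydrolases and transcription factors. Glb1 changed by −3.96 ± 0.52 (edgeR adjusted p = 3.12e-05), Manba by −3.09 ± 0.80 (edgeR adjusted p = 0.0108), Man2b1 by −1.74 ± 0.48 (edgeR adjusted p = 0.017), Lgmn by −0.66 ± 0.18 (edgeR adjusted p = 0.0162) and Hexa by −0.61 ± 0.21 (edgeR adjusted p = 0.0474). Lipa rose by 1.01 ± 0.26 (edgeR adjusted p = 0.0106), and Gla, the alpha-galactosidase, by 3.57 ± 1.20 (edgeR adjusted p = 0.0399). Averages over conditions hide that Glb1 was at 149, 181 and 177 CPM in SPF ICH day 7, above each SPF sham library (80, 109.8 and 55.1 CPM). Without the 7 libraries of under 12000 genes, the mean is over ABX and SPF mice alone, and ABX ICH day 7 holds replicate 3 only. Glb1 (−0.82), Man2b1 (−0.39) and Lgmn (−0.12) were then no longer called and Hexa turned to 0.15. Under the same setting the change was 1.14 for Lamp2, 1.00 for Lipa, 4.37 for Gla and −1.99 for Manba. For the V-ATPase it was 1.08 for Atp6v0e, 1.18 for Atp6v1c1, 1.27 for Atp6v1d, 0.85 for Atp6v1f and 1.16 for Atp6ap2. Asah1 (0.65), Atp6v1a (0.28) and Atp6v1g1 (0.72) lost the call. GC offsets ended the calls of Gla (3.33), Man2b1 (−1.10), Lgmn (−0.26), Lipa (0.41) and Asah1 (0.56), and turned Hexa to 0.24. The call of Gla was lost on leaving out any of 12 single libraries, that of Hexa any of 21, and that of Manba without GF sham replicate 3 (−3.09 became −1.74).

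Day 7 against day 3, averaged over conditions, gave 22 called members of 47, 8 up and 14 down, against 20.1% of all genes and 34.0% of those of 100 CPM or more. Of all genes called, 587 were higher and 2944 lower at day 7. At an unadjusted p under 0.05 there were 29 members, beside 35.5% of all genes. DESeq2 called 25 members and voom 28. Cd68 fell by 0.95 ± 0.17 on the log2 scale (edgeR adjusted p = 0.000764). In levels it was at 1643, 1699 and 1817 CPM in ABX ICH day 7 and 2841, 2315 and 2097 CPM in ABX ICH day 3, and at 1760, 1854 and 2241 CPM in SPF ICH day 7 and 2821, 2400 and 2999 CPM in SPF ICH day 3. All day 7 libraries lay below all day 3 libraries in each of the 3 conditions. Without the low libraries, GF mice drop out of the mean and ABX ICH day 7 holds replicate 3 only. Cd68 was then still lower at day 7 (−0.49). With GC offsets the change in Cd68 was −0.10 and not called. Among hydrolases, 9 of 24 were lower at day 7 and called, Glb1, Manba, Psap, Gaa, Lgmn, Man2b1, Hexa, Gusb and Tpp1, and Asah1 was higher at 1.62 ± 0.22 (edgeR adjusted p = 7.31e-05). Lamp2 was higher at 1.63 ± 0.20 (edgeR adjusted p = 1.94e-05), as were Atp6v1c1, Atp6ap2, Atp6v1g1, Atp6v0e, Atp6v1d and Atp6v1f, between 0.68 and 1.64 on the log2 scale. Atp6v0c was lower, at −1.34 ± 0.31 (edgeR adjusted p = 0.0059). GC offsets kept the calls of Glb1, Manba, Asah1 (0.88), Tfe3, Mitf, Atp6v1c1 (0.82), Atp6v1g1 (1.08) and Atp6v1f (1.60). They ended the other 14, among them Lamp2 (0.50), Atp6ap2 (0.66), Atp6v0e (0.56), Atp6v1d (0.52), Atp6v0c (−0.73), Psap (−0.11), Lgmn (−0.05) and Hexa, which turned to 0.51. Without the low libraries 9 of the 22 calls stayed: Glb1 (−1.69), Manba, Asah1, Lamp2 (1.11), Cd68, Atp6v0e, Atp6v1c1, Atp6v1d and Atp6ap2. Single libraries ended the calls of Gusb (any of 9), Hexa (8), Man2b1 (4), Tpp1 (16), Tfeb (3) and Atp6v1f (14).

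Hydrolases and the V-ATPase can be set against each other within a library, where scaling between libraries cancels. The summed CPM of the 24 hydrolase genes over that of the V-ATPase genes was 1.73, 1.07 and 1.36 in ABX ICH day 7, 1.23, 0.801 and 1.16 in GF ICH day 7 and 2.18, 3.17 and 2.49 in SPF ICH day 7. At day 3 it was 4.29, 2.17 and 2.95 in ABX, 4.14, 2.89 and 3.98 in GF and 3.56, 2.59 and 3.03 in SPF mice. In sham it was 2.65, 2.43 and 2.85 in ABX, 4.06, 3.67 and 3.33 in GF and 3.09, 3.20 and 2.53 in SPF mice. The ABX and GF day 7 libraries gave the 6 lowest of the 27 ratios, and the SPF day 7 libraries overlapped sham. Lgmn alone made up 24.6% to 60.3% of the hydrolase sum in a library. Without Lgmn, a setting chosen after seeing the data, the ratio was 0.595 to 0.988 in the 6 ABX and GF day 7 libraries, against 1.003 to 2.45 in the other 21, with SPF sham replicate 3 the lowest of these. The sums themselves, unlike their ratio, depend on scaling between libraries. Genes of 100 CPM or more had a median log2 fold change at day 7 of 1.05 in ABX, 0.26 in GF and 0.07 in SPF mice. In ABX mice the sum for the V-ATPase was 9390 to 15668 CPM at day 7, against 4594 to 5949 CPM in sham. The sums for hydrolases, 10032 to 27160 and 13107 to 15237 CPM, overlapped. In GF mice the sum for hydrolases was 8521 to 9960 CPM at day 7, against 14726 to 43845 CPM in sham, while the sums for the V-ATPase, 7627 to 10635 and 4009 to 10808 CPM, overlapped. In SPF mice the sum for the V-ATPase was 5303 to 6206 CPM at day 7, against 3885 to 4912 CPM in sham, and the sums for hydrolases, 12202 to 16785 and 12002 to 15462 CPM, overlapped.

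**Figure D4:**
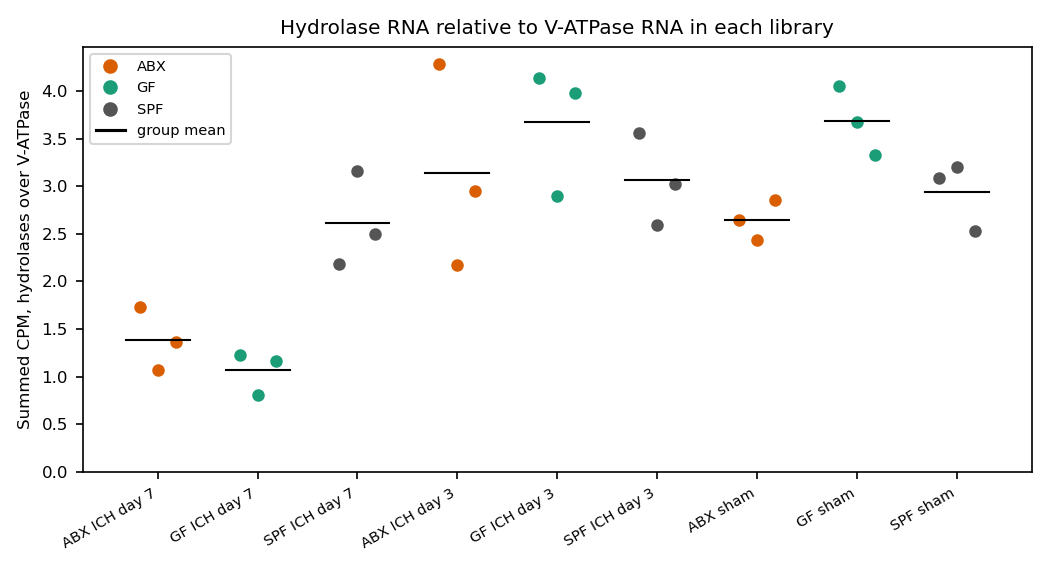
Summed CPM of the 24 hydrolase genes divided by that of the V-ATPase genes, with 1 point per library, groups along the axis and a bar at each group mean. The 6 ABX and GF libraries of ICH day 7 lie between 0.801 and 1.73, under each of the other 21.

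Gene by gene, the median log2 fold change of hydrolases minus that of the V-ATPase was −1.14 in ABX, −2.75 in GF and −0.06 in SPF mice at day 7, and −1.25 for the mean over the 3 conditions. At day 3 it was 0.69 in ABX, −0.0006 in GF and 0.05 in SPF mice, and 0.38 for the mean. A related difference was taken in each library, from log2 CPM less each gene's mean over libraries: the median of hydrolases minus that of the V-ATPase. Its standard deviation within groups, pooled over groups, was 0.73, with 0.15 in ABX sham and 1.59 in GF ICH day 7. It describes the spread of single libraries and not the error of the differences above. Of the V-ATPase 13 of 14 genes tested averaged 100 CPM or more, and of hydrolases 11 of 24. At day 7 the median log2 fold change of all genes tested was −0.79 in ABX, −2.10 in GF and −0.03 in SPF mice. That of the 1649 genes of 100 CPM or more was 1.05, 0.26 and 0.07. The classes thus also differ in abundance, whose part was not tested. Among members at that level the medians over conditions at day 7 were −0.66 for 11 hydrolases and 0.68 for 13 V-ATPase genes, beside 0.46 for all 1649 such genes. For the same members, the difference taken in each library was −1.55 to 0.05 in ABX ICH day 7 and −0.20 to 0.22 in ABX sham. It was −2.47 to −1.82 in GF ICH day 7 and 0.58 to 1.34 in GF sham. In SPF mice it was −0.003 to 0.27 at day 7 and 0.20 to 0.38 in sham. For both classes in full, the difference over conditions at day 7 was −1.03 with GC offsets. Without the low libraries it was −0.78, in a mean over ABX and SPF mice where ABX ICH day 7 holds replicate 3 only. No test was made of a difference between the classes, since they were chosen with earlier results known.

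The change on day 7 moved with base composition. The median GC content of exons was 52.7% for hydrolases, 48.2% for the V-ATPase and 49% for all genes tested. Over the 28 abundant members, Spearman's rho between GC content and log2 fold change was −0.734 in ABX, −0.661 in GF and −0.088 in SPF mice at day 7. Over all 1649 abundant genes it was −0.278, −0.53 and 0.174. These points share their libraries and their depth, so rho is a description. With GC offsets, rho over the 1649 genes was 0.064 in ABX and 0.227 in GF mice, which is past 0 in GF mice. Of the members, 11 were then called in GF mice at day 7 in place of 21, 9 of them shared: Glb1, Man2b1, Manba, Ids, Tpp1, Tfeb, Tfe3 and Mitf, all down, and Atp6v1g1, up. Atp6v0b and Atp6v1f, both up, were called with offsets only. Over the 3 conditions 12 were called in place of 19.

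**Figure D5:**
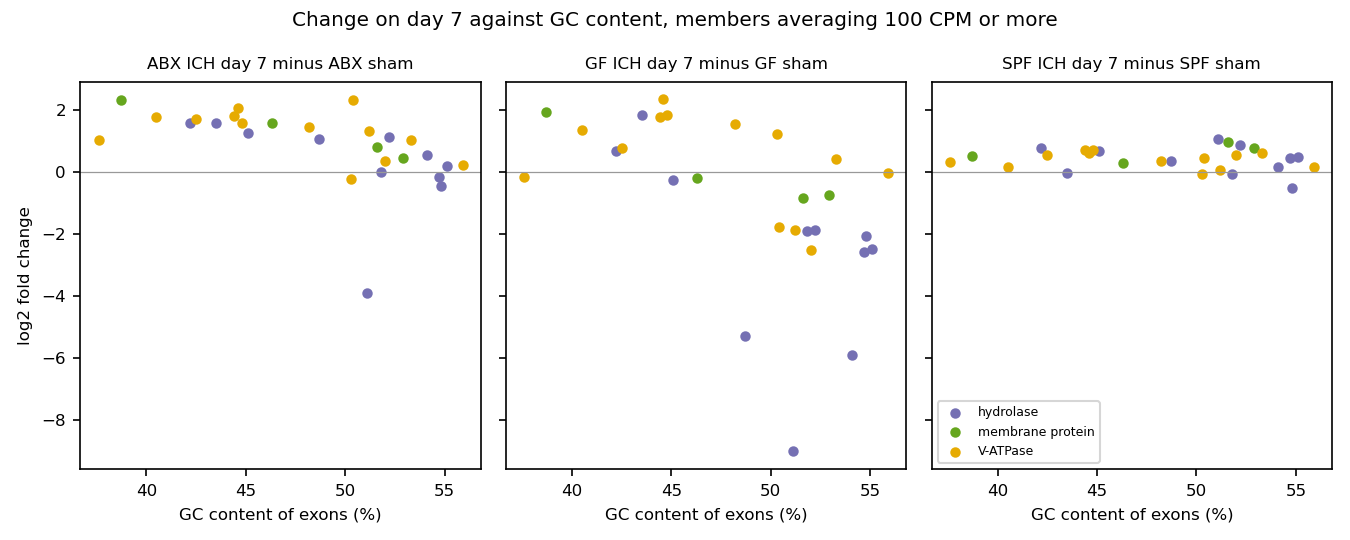
Log2 fold change at day 7 against sham (vertical axis) by GC content of exons in percent (horizontal axis) for the 28 members averaging 100 CPM or more, in ABX, GF and SPF mice, coloured by class. In ABX and GF mice members of higher GC content have lower fold changes, with rho of −0.734 and −0.661, and in SPF mice rho is −0.088.

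The 3 transcription factors averaged 19.1 CPM (Mitf), 24.6 CPM (Tfeb) and 25.9 CPM (Tfe3) over all libraries, and were lowest in GF ICH day 7. The mean of Tfeb rests on GF sham replicate 1, at 465 CPM, and was 7.61 CPM without it. Tfe3 was at 0, 0.15 and 0 CPM in GF ICH day 7, against 0.645, 41.5 and 43.2 CPM in GF sham, and changed by −9.07 ± 2.16 (edgeR adjusted p = 0.00725). Mitf was at 0, 0.113 and 0 CPM in GF ICH day 7, against 0.322, 75.2 and 8.93 CPM in GF sham, and changed by −9.45 ± 1.96 (edgeR adjusted p = 0.00282). In both genes all 3 day 7 libraries were below sham, and replicate 1 of GF sham was itself under 1 CPM. Tfeb was at 0, 0 and 0.0631 CPM in GF ICH day 7, against 465, 59.1 and 23.9 CPM in GF sham, with 3 counts over the day 7 libraries and 16015 over sham. The ratio of their levels was 0.000182, with a 95% counting interval of 3.75e-05 to 0.000532 that covers counting error only (edgeR adjusted p = 0.0059).

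For Tfeb, each GF sham library lay above each SPF and ABX sham library, but the difference between GF and SPF sham was not called. SPF sham libraries had 3.26, 0 and 0.119 CPM, and ABX sham libraries 7.34, 11.4 and 16.5 CPM. In ABX ICH day 7 Tfeb was at 0.379, 0.235 and 0.551 CPM, below each ABX sham library, with a change of −4.91 ± 2.15 (edgeR adjusted p = 0.213) that was not called. Tfe3 was at 0, 0.162 and 3.23 CPM in ABX ICH day 7, against 10.1, 16.3 and 28.9 CPM in ABX sham, and Mitf was at 0.806, 7.58 and 4.52 and 26.2, 35 and 17.3 CPM in the same groups. Neither was called, though the groups do not overlap. In SPF ICH day 7 Tfe3 was at 18.2, 20.9 and 27.4 CPM and Mitf at 38.6, 20.1 and 26.8 CPM, each overlapping SPF sham. Over conditions all 3 fell at day 7, with log2 fold changes of −5.15 for Tfeb, −4.51 for Tfe3 and −3.96 for Mitf (edgeR adjusted p = 0.00841, 0.00497 and 0.00462). None of the 3 calls held without the low libraries in the mean over ABX and SPF mice (−1.03, −1.52 and −1.21).

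Did the microbiota condition itself matter for these genes? Without hemorrhage, 0 of 47 members were called by edgeR between ABX sham and SPF sham (0% of all genes), and 0 by DESeq2 or voom. At an unadjusted p under 0.05 there were 0, beside 4.05% of all genes. Between GF sham and SPF sham 0 were called by edgeR (0.00569% of all genes), 5 by DESeq2 and 0 by voom. The unadjusted count was 8, beside 6.22% of all genes. At day 3, 0 were called by edgeR, DESeq2 or voom in ABX or in GF against SPF mice, with 0% of all genes called. The unadjusted count was 0 in each, beside 4.89% of all genes for ABX and 3.46% for GF mice. At day 7, 2 were called by edgeR in ABX against SPF mice (0.0854% of all genes), 15 by DESeq2 and 6 by voom. The unadjusted count was 14, beside 19.4% of all genes. Lamp2 was at 5427, 3369 and 2743 CPM in ABX ICH day 7, against 1619, 848 and 948 CPM in SPF ICH day 7, and was higher by 1.76 ± 0.35 (edgeR adjusted p = 0.0441). Glb1 was at 1.56, 1.17 and 11.9 CPM in ABX ICH day 7, against 149, 181 and 177 CPM in SPF ICH day 7, and was lower, at −5.11 ± 0.95 (edgeR adjusted p = 0.0403). Both sets of libraries are free of overlap, but the calls were lost on leaving out any of 18 single libraries for Lamp2 and 19 for Glb1 (edgeR adjusted p up to 0.313 for both), and with GC offsets or DESeq2 size factors.

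GF mice differed from SPF mice at day 7 in 18 of 47 members, 7 up and 11 down, against 12.9% of all genes and 16.7% of those of 100 CPM or more. Of all genes called, 189 were higher and 2074 lower in GF mice. DESeq2 called 21 and voom 19, and with DESeq2 size factors the split was 4 up and 13 down. Glb1 (−8.61 ± 1.11 (edgeR adjusted p = 0.000111)), Hexa (−2.06 ± 0.39 (edgeR adjusted p = 0.00289)), Cd68 (−1.43 ± 0.29 (edgeR adjusted p = 0.00458)), Mitf (−9.47 ± 1.96 (edgeR adjusted p = 0.00506)) and Tpp1 (−4.71 ± 1.04 (edgeR adjusted p = 0.00702)) were lower in GF mice. Asah1 (1.73 ± 0.38 (edgeR adjusted p = 0.00693)) and Lamp2 (1.49 ± 0.34 (edgeR adjusted p = 0.00911)) were higher, as were the V-ATPase genes Atp6ap2, Atp6v1c1, Atp6v0e, Atp6v1d and Atp6v1g1. Cd68 was at 699, 461 and 1018 CPM in GF ICH day 7, against 1760, 1854 and 2241 CPM in SPF ICH day 7, with no overlap. With GC offsets the difference in Cd68 was −0.11 and not called, and that in Lamp2 was −0.26, the opposite sign. Offsets also ended the calls of Hexa (−0.30), Asah1 (0.48), Man2b1 (−2.01), Lgmn (−0.15), Tfeb (−7.25) and Atp6v0c (−1.08). Of the V-ATPase genes that were higher, Atp6ap2 (0.30), Atp6v1c1 (0.48), Atp6v0e (0.50) and Atp6v1d (0.26) lost the call and Atp6v1g1 (1.23) kept it. Glb1 (−7.77), Mitf (−10.75), Tpp1 (−4.58), Manba (−6.31) and Tfe3 (−7.60) kept theirs. Leaving out 1 library ended the calls of Man2b1, Manba (both GF ICH day 7 replicate 3), Lgmn, Tfeb, Atp6v0c, Atp6v0e (SPF ICH day 7 replicate 2), Atp6v1c1, Atp6v1d and Atp6v1g1, with edgeR adjusted p of at most 0.143 among them.

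The difference between conditions in the response itself was tested as an interaction, and these tests share the SPF libraries with the comparisons above. For GF minus SPF mice at day 7, 13 members were called, 1 up and 12 down, against 7.04% of all genes and 9.88% of those of 100 CPM or more. Of all genes called, 50 were up and 1188 down. DESeq2 called 18 and voom 13. For ABX minus SPF mice at day 7, 0 were called by edgeR (0% of all genes), 2 by DESeq2 and 0 by voom. At an unadjusted p under 0.05 there were 6, beside 12.7% of all genes. At day 3, 0 were called by edgeR in the ABX interaction (0% of all genes), and 0 by DESeq2 or voom. The unadjusted count was 0, beside 5.58% of all genes. In the GF interaction at day 3, 0 were called by edgeR (0% of all genes), 1 by DESeq2 and 0 by voom. The unadjusted count was 3, beside 5.68% of all genes.

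Genes of the same organelle that are not members were counted from lists of 35 other lysosomal genes and 10 other V-ATPase genes. Over the 3 conditions at day 7, 5 of the 35 rose and 5 fell, beside 20.2% of all genes called, and 8 of the 19 at 100 CPM or more were called, beside 30.3% of genes at that level. Cd63, a tetraspanin of late endosomes, rose by 2.23 ± 0.20 (edgeR adjusted p = 1.83e-07), and Ctns, the cystine exporter, changed by −4.19 ± 0.68 (edgeR adjusted p = 0.000314). In GF mice at day 7, 3 rose and 5 fell, beside 14.4% of all genes called, and 6 of the 19 at 100 CPM or more were called, beside 24.3%. Among those that fell were Grn, which encodes progranulin, at −3.80 ± 0.55 (edgeR adjusted p = 0.000151) and Laptm5, a lysosomal membrane protein of blood cells, at −3.99 ± 0.59 (edgeR adjusted p = 0.000175). At day 3 Cd63 (1.54 ± 0.20 (edgeR adjusted p = 5.5e-05)) and Ifi30, a lysosomal thiol reductase (1.89 ± 0.43 (edgeR adjusted p = 0.0249)), rose. In SPF mice Cd63 rose at both times, by 2.20 at day 7 and 2.12 at day 3 (edgeR adjusted p = 0.00474 and 0.00599). Of the 10 other V-ATPase genes 5 were tested, and none rose in any of these comparisons. Both large membrane a-subunits that changed were lower in GF ICH day 7 than in GF sham, Tcirg1 at −9.54 ± 1.65 (edgeR adjusted p = 0.00071) and Atp6v0a1 at −8.57 ± 1.97 (edgeR adjusted p = 0.00584).

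Of the 47 members tested, 28 were called in at least 1 of the 19 comparisons, against 31.4% of all genes, and 19 in none. Of the 28 members averaging 100 CPM or more 20 were called at least once, against 49.8% of genes at that level. The 19 were 10 hydrolases (Galc, Idua, Naglu, Neu1, Arsa, Sgsh, Smpd1, Ppt1, Pla2g15 and Acp5), 4 membrane proteins (Lamp1, Scarb2, Cln3 and Mcoln1) and 5 V-ATPase genes (Atp6v0b, Atp6v0d1, Atp6v1b2, Atp6v1e1 and Atp6v1h). They include genes whose libraries of a group varied widely. Smpd1, the acid sphingomyelinase, was at 0.168, 0.263 and 198 CPM in GF ICH day 7, and Pla2g15, a lysosomal phospholipase, at 1060, 2.38 and 20.6 CPM in ABX ICH day 7. Atp6v0b, by contrast, lay between 762 and 1702 CPM in all 27 libraries. These 3 were named after their values were seen. Atp6v0d2 had 0 counts in 25 of the 27 libraries, 2.96 CPM in SPF ICH day 7 replicate 3 and 0.579 CPM in ABX sham replicate 2.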

How the data were processed

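The deposited table holds counts of reads per gene as whole numbers for 27 libraries, per the file headers and the values. The SMART-Seq v4 kit, which amplifies full-length cDNA from very little RNA, and paired reads on an Illumina NovaSeq were used, per the labels' protocols. Per the submitters' processing notes, the tools were HISAT2 2.0.4, cutadapt 1.9, StringTie 1.3.4d and edgeR (no version), with the mm10 build. The annotation release, the strand setting and the counting of mates are not given in the sources used here. GENCODE M21 (GRCm38) gave symbols to 52073 of 56691 identifiers, and the other 4618 hold 1.27% of counts.

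Low counts were filtered with filterByExpr (edgeR 4.0.16) using the 9 labelled groups, leaving 17573 genes with 99.9% of counts. TMM factors were 0.476 to 1.31. All 19 comparisons came from 1 robust quasi-likelihood fit of 9 group means in R 4.3.3, with Benjamini-Hochberg adjustment over all genes at 0.05, and the SE was taken from the F statistic. Over all genes the biological coefficient of variation came to 1.54. The fit was also run on simulated counts, and the outcome is not given here. Alternatives were DESeq2 1.42.0, limma 3.58.1 voom with quality weights, DESeq2 size factors, no filter, a replicate block, leaving out each library in turn, leaving out the 7 libraries under 12000 detected genes, and GC offsets (per library, a centred spline of 6 degrees of freedom on genes of at least 100 CPM). GC content covers 96.0% of tested genes and all 48 members.

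The members, the lists and the tests were chosen with earlier results of these data known. Full values were planned for the members called, up to 8 in a comparison by smallest adjusted p. They were also planned for Cd68, Lamp1, Lamp2, Lgmn, Psap, Lipa, Acp5, Tfeb, Tfe3, Mitf, Atp6v0d1, Atp6v0d2 and Atp6v1a. The text prints them for some comparisons only, so it is not a complete account of these genes. Of the other lists, called genes are named, up to 6 in a comparison. One gene of these lists is not reported here. Figures were drawn with matplotlib 3.10.9.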

Additional observations from a re-analysis of the deposited data

Results flagged for a closer look

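The response of 13 members at day 7 differed between GF and SPF mice by a test of the difference itself, the interaction of condition with ICH day 7 against sham in the edgeR fit. The same test called 7.04% of all genes, 50 up and 1188 down. Each value is the log2 fold change in GF mice minus that in SPF mice. Among hydrolases it was −10.07 for Glb1 (edgeR adjusted p = 0.000206), −9.91 for Gaa (0.0419), −2.96 for Hexa (0.00279), −6.09 for Man2b1 (0.00657), 1.87 for Asah1 (0.0357), −3.06 for Psap (0.0161), −5.65 for Tpp1 (0.0161) and −1.86 for Lgmn (0.0168). For the transcription factors it was −15.39 for Tfeb (edgeR adjusted p = 0.0119), −8.62 for Tfe3 (0.0371) and −9.63 for Mitf (0.0144). It was −1.52 for Cd68 (edgeR adjusted p = 0.0266) and −3.07 for Atp6v0c (0.0194). The largest of these sizes rest on levels near 0 and are uncertain. In GF ICH day 7 the highest library was at 0.0631 CPM for Tfeb, 0.15 for Tfe3, 0.113 for Mitf, 0.696 for Glb1 and 0.376 for Gaa.

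The calls of Glb1, Hexa and Man2b1 held when each of the 27 libraries in turn was left out. Without SPF sham replicate 3 those of Psap (−2.73), Lgmn (−1.89), Tpp1 (−5.45), Tfeb (−14.86), Mitf (−9.65) and Atp6v0c (−2.97) were lost, with edgeR adjusted p of at most 0.0723 for them in any case that lost a call. The call of Gaa was lost in 15 of 27 cases, that of Tfe3 in 9, of Asah1 in 7 and of Cd68 in 5. With GC offsets Glb1 (−9.19), Man2b1 (−4.28), Tpp1 (−5.68), Tfeb (−13.23) and Mitf (−11.13) kept their calls.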

How the results depend on the processing

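Counts of called members moved by more than 1.5 times from the edgeR count in these cases. The share of all genes called under each setting is not given here. The counts thus do not show whether members moved more than other genes. In ABX mice at day 7 against sham (4 called), DESeq2 gave 17, voom 10, DESeq2 size factors 2, no filter 1, the replicate block 1 and leaving out the libraries under 12000 detected genes 16. In ABX against SPF mice at day 7 (2 called), DESeq2 gave 15, voom 6, leaving out those libraries 12, and size factors, no filter, the replicate block and GC offsets 0 each. In the mean of day 3 against sham (1 called), DESeq2 gave 3, voom 7 and leaving out the low libraries 6. Where edgeR called 0, DESeq2 gave 1 in ABX and 1 in SPF mice at day 3, 2 in GF mice at day 3, 5 between GF and SPF sham, 2 in the ABX interaction at day 7 and 1 in the GF interaction at day 3. On the same comparisons voom gave 3 in ABX and 4 in SPF mice at day 3 and 2 in SPF mice at day 7. Leaving out the low libraries gave 3 in ABX and 3 in SPF mice at day 3 and 6 in the ABX interaction at day 7. GC offsets gave 11 in place of 21 in GF mice at day 7, 12 in place of 19 in the mean of day 7 against sham, 9 in place of 22 for day 7 against day 3, 9 in place of 18 for GF against SPF mice at day 7 and 6 in place of 13 in the GF interaction at day 7. They moved the hydrolase minus V-ATPase median for day 7 against day 3 to −1.04, from −2.01.

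Signs turned for Hexa with GC offsets (0.24 in the mean of day 7 against sham, 0.51 for day 7 against day 3), for Lamp2 in GF against SPF mice at day 7 (−0.26) and for Cd68 in the GF interaction at day 7 (0.10). An alternative chosen after seeing the data, which leaves out the low libraries and averages ABX and SPF mice, turned Hexa in the mean of day 7 against sham (0.15) and Tpp1 for day 7 against day 3 (0.34). The cause was not tested. No value could be had for single GF comparisons at day 7 without the low libraries, since none of that group remains. ABX ICH day 7 and GF sham then hold replicate 3 only. Of the 100 calls of single members, 88 stayed with DESeq2, 83 with voom, 83 with size factors, 78 without a filter, 85 with the block and 41 with GC offsets.

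Leaving out each library in turn gave 1 to 9 called members in ABX mice at day 7, 17 to 22 in GF mice at day 7, 15 to 22 in the mean of day 7, 1 to 3 in the mean of day 3, 16 to 26 for day 7 against day 3, 0 to 7 for ABX and 12 to 20 for GF against SPF mice at day 7, and 3 to 17 in the GF and 0 to 1 in the ABX interaction at day 7. It gave 0 to 1 in GF and in SPF mice at day 3. The hydrolase minus V-ATPase median then ranged from −1.62 to −1.19 in the mean of day 7, 0.23 to 0.61 in the mean of day 3, −2.26 to −1.85 for day 7 against day 3, −1.42 to −1.01 in ABX mice at day 7, −0.49 to 0.22 in SPF mice at day 7 and −0.03 to 0.44 in SPF mice at day 3. No label pairs libraries by replicate number, and the 108 pairs of libraries with the same number had a median correlation of deviations of 0.006, with 19 over 0.1, and 5 of 27 libraries correlated best with their own number, so the block is given here only. Low counts limit members such as Tfeb, Tfe3, Mitf, Ids, Arsa and Sgsh, each with libraries at 0.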
